A study of Mus musculus with 15 samples.

Results

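The genes described here belong to the unfolded protein response and the integrated stress response, the programs with which a cell answers misfolded protein in the endoplasmic reticulum (ER) or a shortage of amino acids. They were chosen by gene symbol, 1 row per Ensembl identifier, and are 33 of the 40510 genes in the count table. They fall into 15 ER chaperones and folding enzymes, 8 genes of the ATF4 arm (Atf4 itself and genes known as its targets or partners), 4 sensors and transducers, and 6 genes of ER-associated degradation (ERAD) and protein translocation. All 33 passed the filter on low counts, among 13284 genes tested.

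RNA was sequenced from mouse alveolar macrophages, which live in the lung's airspaces and clear inhaled material and surfactant, taken by bronchoalveolar lavage (BAL). The 5 groups of 3 libraries were, at 12 weeks of age, CD11b-high and CD11b-low cells of Cybb knockout (KO) mice and CD11b-low cells of wild-type (WT) mice, and, at 4 weeks, CD11b-low cells of KO and of WT mice. All mice were on a C57BL/6 background and labelled naive, and the sort took SiglecF+ CD11c+ cells among CD45+ Ly6G- ones before it split them on CD11b, so no group had been given an agent to stress the ER. The KO, labelled CGD for chronic granulomatous disease, lacks a working copy of Cybb, which encodes the catalytic subunit of the phagocyte NADPH oxidase. The sources used here give no promoter or Cre, so the loss is read as present in every cell of the animal. Each library came from 2 to 3 mice of 1 group pooled to about 50000 cells, so the spread between libraries is a spread between pools. There was no CD11b-high group from WT mice or from 4-week mice among the samples analysed, so CD11b-high KO cells could be set only against CD11b-low cells.

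As background, 3 ER membrane proteins sense misfolded protein. IRE1 (Ern1) splices the mRNA of Xbp1, ATF6 (Atf6) is cut in the Golgi to release a transcription factor, and PERK (Eif2ak3) phosphorylates the initiation factor eIF2, which slows translation in general and favours that of Atf4. Spliced XBP1 and cut ATF6 are known to raise ER chaperones and ERAD genes, while ATF4 raises genes of amino acid supply, of redox balance and, with Ddit3 (CHOP), of cell death. The kinases PKR, GCN2 and HRI also phosphorylate eIF2, so the ATF4 arm can be raised with no change in the ER, and this wider route is the integrated stress response. Counts per gene do not show splicing of Xbp1, cutting of ATF6 or phosphorylation, so what follows is about mRNA levels alone.

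The arms differ in the letters of their promoters, which are shown for the members the results turn on and for the best-known chaperone sites. Windows of 250 bases before and 50 after the start, from RefSeq on GRCm38.p6, were held for 30 of the 33 genes; Hyou1, Manf and Atf6 had no entry. The ER stress response element (ERSE, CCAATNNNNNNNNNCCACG, on either strand) was present in 7 of 13 ER chaperone genes with a window and in 1 of 6 ERAD and translocation genes (Syvn1), against none of 8 ATF4-arm genes and none of 3 sensors. It was in 0.119% of all 32851 windows. In the stretches below the capitals mark the motif letters, and each is written on the strand on which the motif reads.
Hspa5: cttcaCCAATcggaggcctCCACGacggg
Canx: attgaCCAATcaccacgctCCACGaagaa
Creld2: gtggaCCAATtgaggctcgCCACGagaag
Hsp90b1: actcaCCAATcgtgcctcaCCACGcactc
Herpud1: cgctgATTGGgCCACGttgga
Asns: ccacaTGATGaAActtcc
Chac1: aggagTGATGcAAcggca
The Hspa5 stretch is at chr2:34772020-34772048 on the plus strand, from position -70 to -42 counted from the RefSeq start. That of Canx is at chr11:50325795-50325823 on the minus strand, and that of Creld2 at chr15:88819515-88819543 on the minus strand, opposite to its gene. Hsp90b1 held 2 such elements, of which the one nearer to the start is shown, at chr10:86705528-86705556 on the plus strand, opposite to its gene. Herpud1 carries the related ERSE-II (ATTGGNCCACG), shown at chr8:94386372-94386392 on the plus strand. ERSE-II was found in 2 of the 30 genes, Herpud1 and Dnajb11, and in 0.0365% of all windows. The core of the element bound by spliced XBP1 (TGACGTGG) was in no window of the 30 genes and in 0.676% of all windows. The composite element bound by C/EBP and ATF factors (TGATGNAAT) was in none of the 30 either, and in 0.965% of all windows. Its shorter core (TGATGNAA), looked at only after the longer form had been found in no member, was in 3 of 8 ATF4-arm genes (Asns, Chac1 and Trib3) and in Herpud1, and in 3.97% of all windows. The Asns stretch is at chr6:7693220-7693237 on the minus strand and the Chac1 stretch at chr2:119351044-119351061 on the minus strand, opposite to its gene. That of Trib3 lies after the start and is not shown. The Hspa5 and Asns stretches lie before the RefSeq start yet inside the GENCODE gene limits given below, since the annotations place the start differently. No 2 matches of these motifs overlapped, and a match is a match of letters only.

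The libraries held 22856331 to 36458893 counts each. Cybb, the check of the genotype, stood at 129 to 221 CPM (counts scaled to library size, with TMM factors) in the 9 KO libraries and at 899 to 2319 CPM in the 6 WT libraries, so every label fitted its genotype. All 10 markers of alveolar macrophages were detected in every library and summed to 34645 to 63389 CPM, but the sum was mostly Chil3. For these and all other markers of cell types, CPM were scaled to library size without TMM factors. Ear2 stood at 740 to 907 CPM in KO CD11b-high libraries, 1462 to 1652 CPM in KO CD11b-low 12-week libraries and 2934 to 5398 CPM in WT 12-week libraries, so the markers did not all move alike. Replicate 1 of the WT 12-week group stood apart before any gene was tested: its median correlation with its own group over all genes tested was 0.936, against 0.954 to 0.985 for the other 14 libraries. It had the lowest level of all 15 libraries for 7 of the 33 genes and the highest for 5 of them. Replicate 2 of its group was also lowest for 7, and KO CD11b-low 12-week replicate 1 for 6, so this count was not particular to it. In comparisons of the WT 12-week group, values without its replicate 1 are therefore given for Hspa5, Xbp1, Atf4 and Ddit3, the anchors shown in every comparison. They are also given for other members where leaving that library out changed the call. In these sorted pools, fewer cells of a type and less RNA per cell cannot be told apart. Markers of other cells moved with the groups: T and NK markers summed to 32.3 to 122 CPM in the 6 KO 12-week libraries and to 1.56 to 6.41 CPM in the other 9. Markers of B and plasma cells, which are rich in ER, summed to 11.7 to 123 CPM in KO CD11b-high libraries, 6.79 to 56.5 CPM in KO CD11b-low 12-week libraries and 0.823 to 12.5 CPM in the other 9. All 10 B and plasma markers were in the table, and Jchain and Mzb1, which mark antibody-secreting cells, were each at 0 counts in 6 of the 15 libraries. Their part in the results below was not tested.

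Divided by the length of their merged exons, the chaperones led. Hspa5, which encodes BiP, the main ER chaperone of the HSP70 family, averaged 300.0 CPM per kilobase over the 5 group means, Pdia6, a disulfide isomerase, 241 CPM per kilobase, and the lectin chaperone Calr 240 CPM per kilobase. Herpud1, an ERAD factor, was the highest gene outside the chaperones at 102 CPM per kilobase, followed by Sec61b, a subunit of the translocon, at 49.7. Atf4 was the highest of its arm at 45.0 CPM per kilobase and Xbp1 of the sensors at 45.0. The ATF4 arm reached down to Chac1, a glutathione-degrading enzyme, at 0.304 CPM per kilobase, which rested on 2 to 55 counts a library, and Trib3, a pseudokinase that binds ATF4, at 1.25. Among the sensors Ern1 was lowest at 0.568 CPM per kilobase. The spread across libraries was widest for Chac1 (39.0-fold between the lowest and the highest library), Asns (23.9-fold) and Sdf2l1 (12.8-fold), and narrowest for Hsp90b1 (1.73-fold), Atf4 (1.97-fold) and Calr (2.12-fold).

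**Figure D1:**
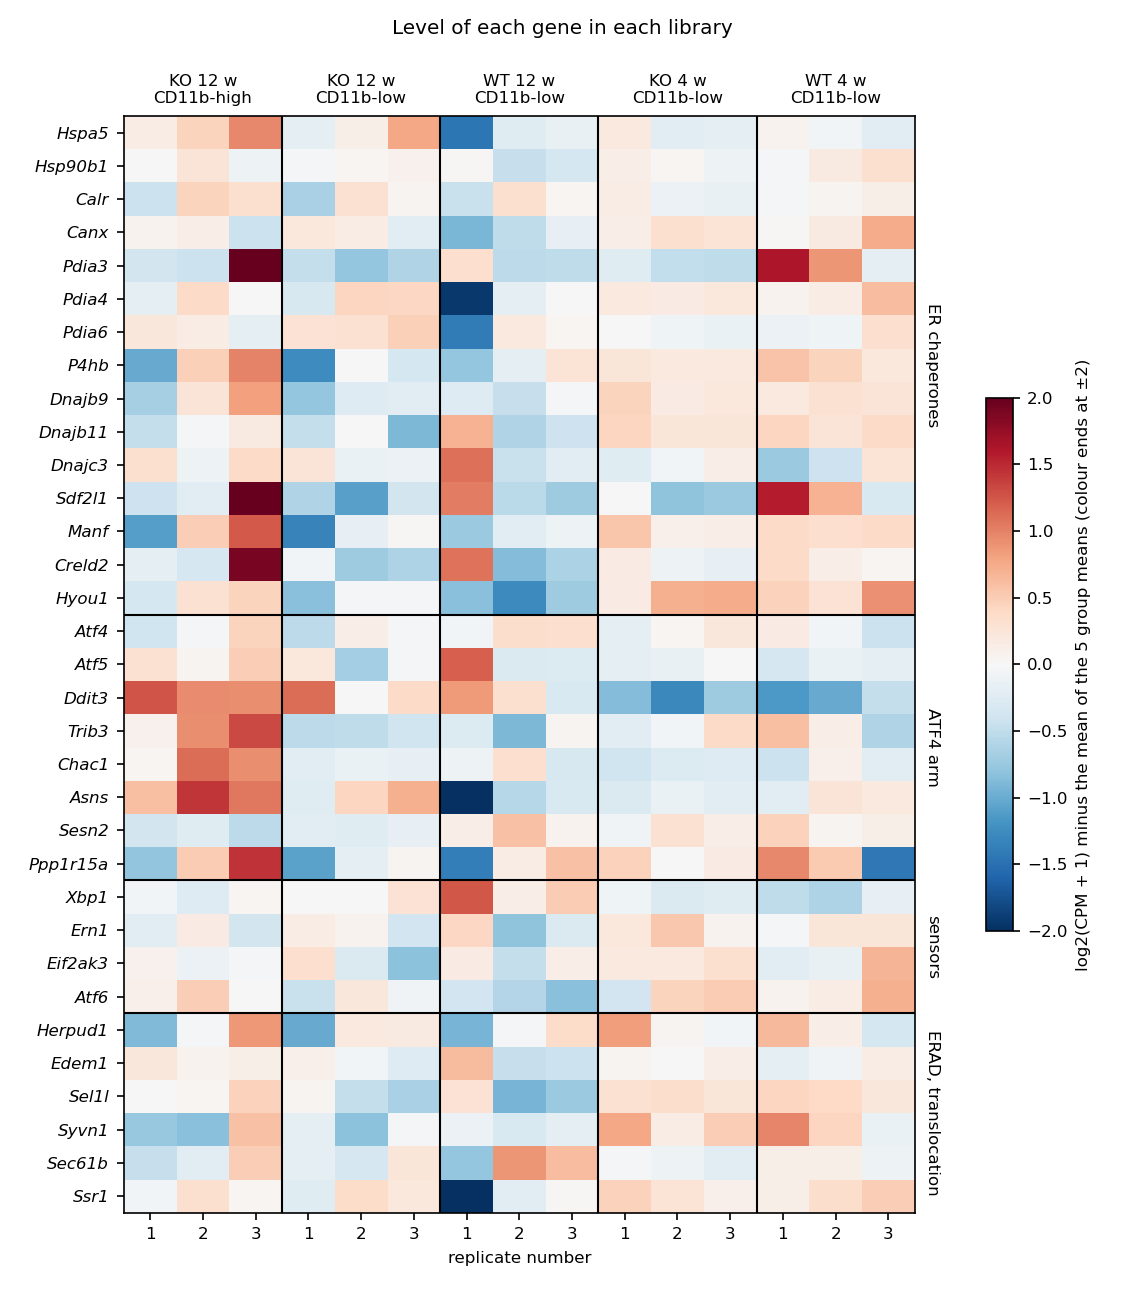
Level of each of the 33 genes (rows, grouped by arm) in each library (columns, 3 per group), as log2(CPM + 1) minus the mean of the gene's 5 group means; red is higher and blue lower. Replicates 1 and 2 of the WT 12-week group each have the lowest level of 7 genes, and replicate 3 of the KO CD11b-high group the highest level of 12.

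Across all 5 groups, 6 of the 33 genes differed somewhere in edgeR's quasi-likelihood test with Benjamini-Hochberg adjustment over all genes tested, as did 26.8% of all genes. They were Ddit3 (adjusted p = 5.1e-04), Hyou1 (0.00423), Xbp1 (0.0163), Chac1 (0.0195), Asns (0.0239) and Trib3 (0.0380). So 4 of the 8 ATF4-arm genes passed, 1 of the 15 chaperones, 1 of the 4 sensors and none of the 6 ERAD and translocation genes, and the share of members passing, 6 of 33, was below that of all genes. When each of the 15 libraries was left out in turn, Ddit3, Hyou1 and Xbp1 passed in all 15 fits, Asns and Chac1 in 13 and Trib3 in 7. Each fit called 4 to 10 members, beside 20.5 to 33.2% of all genes. There were 10 without replicate 1 of the KO CD11b-high group, beside 25.3% of all genes. Without replicate 1 of the WT 12-week group there were 10 as well, beside 33.2%.

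**Figure D2:**
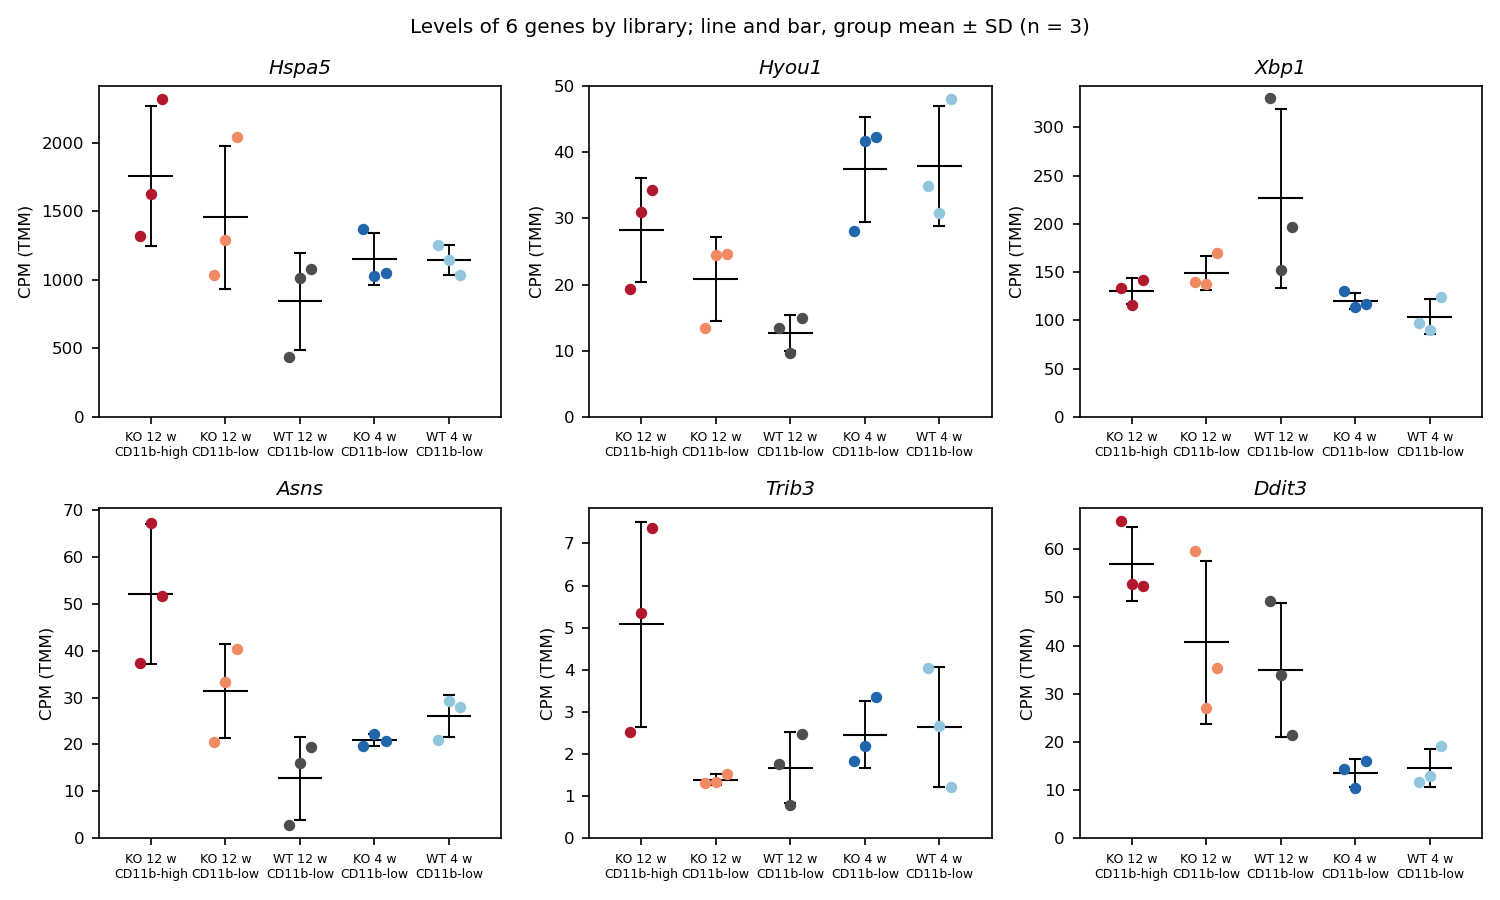
CPM (TMM-scaled, linear axes from 0) of 6 genes in each library; points are libraries, lines and bars the group mean ± SD (n = 3). Ddit3 is higher in all 9 libraries of 12-week mice than in the 6 of 4-week mice, and Hyou1 has its lowest group mean, 12.7 CPM, in the WT 12-week group.

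With age in WT cells, the chaperones Hyou1 and Canx and the sensor Atf6 fell, while Xbp1 and Ddit3, the transcription factor CHOP that is known for its part in cell death, rose. Of the 33 genes 5 passed, 2 of them higher at 12 weeks (Xbp1 and Ddit3) and 3 lower (Hyou1, Atf6 and Canx), against 17.2% of all genes, 8.79% higher and 8.39% lower. Of the 15 chaperones 14 had a negative fold change, with a median log2 fold change of -0.50, beside a median of -0.03 over all genes tested. The 8 ATF4-arm genes had a median of 0.19, with 5 positive.

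Hyou1 (ENSMUSG00000032115, chr9:44379490-44392369, plus strand, 18 merged exons) encodes an ER chaperone of the HSP110 family that serves as exchange factor for BiP. It had 13.5, 9.71 and 14.9 CPM in WT 12-week libraries, against 34.8, 30.8 and 48.1 CPM in WT 4-week libraries. The groups did not overlap. Its log2 fold change was -1.58 ± 0.30 (SE), 2.99-fold lower at 12 weeks, with an adjusted p of 0.00447 that stayed under 0.05 in every fit with 1 library left out (highest 0.0278). Fitted on the 6 libraries of this comparison alone, 2 members passed, Hyou1 (-1.59, adjusted p = 0.0211) and Ddit3 (1.24, 0.0493), while Xbp1 (1.11, 0.0556), Atf6 (-0.99, 0.0574) and Canx (-0.85, 0.114) did not, against 9.44% of all genes in that fit.

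Xbp1 (ENSMUSG00000020484, chr11:5520659-5525893, plus strand, 4 merged exons) had 331, 152 and 197 CPM in WT 12-week libraries, against 97.2, 90.0 and 124 CPM in WT 4-week libraries. All 3 libraries at 12 weeks were above all 3 at 4 weeks, and replicate 1 was the highest of the 15. At 1.13 ± 0.26 its log2 fold change passed (adjusted p = 0.00798), and without replicate 1 of the 12-week group 0.75 (adjusted p = 0.0146).

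Ddit3 (ENSMUSG00000025408, chr10:127290774-127296288, plus strand, 4 merged exons) shares 6.13% of its exon bases with another annotated Ddit3 gene on its strand and 3.97% with Mars on the other, so its counts are uncertain to that extent. It had 49.3, 33.9 and 21.5 CPM in WT 12-week libraries, against 11.7, 13.0 and 19.2 CPM in WT 4-week libraries. The groups did not overlap, though the lowest 12-week library was close to the highest 4-week one. Its log2 fold change was 1.26 ± 0.33 (adjusted p = 0.0154). The call was lost without replicate 1 at 12 weeks (0.93, adjusted p = 0.0523) and without replicate 1 (1.12, 0.0751) or 2 (1.18, 0.0641) at 4 weeks.

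Atf6 (chr1:170704674-170867771, minus strand), in the annotation GENCODE M21 on GRCm38 as for all gene positions here, had 16.0, 13.8 and 11.4 CPM in WT 12-week libraries, against 22.3, 23.6 and 35.3 CPM in WT 4-week libraries, with no overlap, and a log2 fold change of -0.98 ± 0.29 (adjusted p = 0.0265). The call was lost without replicate 2 (adjusted p = 0.0669) or 3 (0.0802) at 12 weeks and without replicate 3 at 4 weeks (0.137). Canx (chr11:50293961-50325673, minus strand), the membrane-bound lectin chaperone, had 395, 528 and 669 CPM in WT 12-week libraries, against 764, 847 and 1256 CPM in WT 4-week libraries, again with no overlap. The log2 fold change was -0.85 ± 0.26 (adjusted p = 0.0317). It was no longer past the threshold without replicate 1 (-0.67, adjusted p = 0.0630) or 2 (-0.85, 0.0817) at 12 weeks or without replicate 2 (-0.93, 0.0541) or 3 (-0.60, 0.179) at 4 weeks. Without replicate 1 of the 12-week group, when 18.4% of all genes passed, 3 further genes fell past the threshold with age in WT cells: Sel1l, an adaptor of the ERAD ubiquitin ligase (-1.21, adjusted p = 0.00525), the co-chaperone Dnajb11 (-0.88, 0.0255) and Hsp90b1, the HSP90 of the ER (-0.56, 0.0374).

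The anchors that did not pass in WT cells with age were Hspa5 and Atf4. Hspa5 had 438, 1010 and 1075 CPM in WT 12-week libraries, against 1249, 1146 and 1036 CPM in WT 4-week libraries. Only replicate 1 stood clearly below the 4-week range, and the log2 fold change was -0.44 ± 0.33 (adjusted p = 0.378), or -0.13 without replicate 1 (adjusted p = 0.782). Atf4 had 100.03, 134 and 131 CPM in WT 12-week libraries, against 117, 99.95 and 76.8 CPM in WT 4-week libraries, with a log2 fold change of 0.31 ± 0.26 (adjusted p = 0.431), or 0.44 without replicate 1 (0.245).

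With age in KO CD11b-low cells, the 1 member that passed was Ddit3, against 6.89% of all genes (4.81% higher and 2.08% lower). It had 59.6, 27.0 and 35.4 CPM in KO CD11b-low 12-week libraries, against 14.3, 10.5 and 16.1 CPM in KO 4-week libraries. The groups did not overlap, and replicate 1 was the highest of the 3 libraries at 12 weeks. The log2 fold change was 1.58 ± 0.33, 2.98-fold higher at 12 weeks (adjusted p = 0.00942). It missed the threshold without replicate 1 at 12 weeks (1.19, adjusted p = 0.0565) and without replicate 2 at 4 weeks (1.42, 0.0658).

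Hspa5 had 1037, 1291 and 2040 CPM in KO CD11b-low 12-week libraries, against 1370, 1030 and 1048 CPM in KO 4-week libraries, with a log2 fold change of 0.34 ± 0.33 (adjusted p = 0.568). Xbp1 had 140, 138 and 170 CPM in KO CD11b-low 12-week libraries, against 130, 114 and 117 CPM in KO 4-week libraries, and a log2 fold change of 0.31 ± 0.25 (adjusted p = 0.485). Atf4 had 71.8, 114 and 102 CPM in KO CD11b-low 12-week libraries, against 91.97, 107 and 122 CPM in KO 4-week libraries (log2 fold change -0.16 ± 0.26, adjusted p = 0.760). Their groups overlapped for Hspa5 and Atf4 and did not for Xbp1. Hyou1 had 13.5, 24.5 and 24.6 CPM in KO CD11b-low 12-week libraries, all below the 28.2, 41.7 and 42.4 CPM of KO 4-week libraries, with a log2 fold change of -0.84 ± 0.30 that missed the threshold (adjusted p = 0.0873). The 15 chaperones had a median log2 fold change of -0.20, with 10 negative, and the 8 ATF4-arm genes one of -0.09, beside -0.02 over all genes tested.

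Whether the change with age differed between the genotypes was tested as an interaction. It called 0 of the 33 genes, and 0.248% of all genes. At an unadjusted p under 0.05 it held 2 of the 33 (Asns and Xbp1), against 8.3% of all genes. DESeq2 called 0 of the 33 and 1.12% of the genes it tested, and limma voom 0 and 0.0527%. The interaction of Asns was 1.61 ± 0.64 (adjusted p = 0.472) and that of Xbp1 -0.82 ± 0.36 (adjusted p = 0.547), both on the log2 scale. That of Hspa5 was 0.78 ± 0.46, that of Atf4 -0.47 ± 0.36 and that of Ddit3 0.32 ± 0.46. Without WT 12-week replicate 1 the interaction called 0 of the 33 genes, with Asns at 1.14 (adjusted p = 0.391), Xbp1 at -0.44 (0.735), Hspa5 at 0.47 (0.808), Atf4 at -0.60 (0.733) and Ddit3 at 0.65 (0.766).

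**Figure D3:**
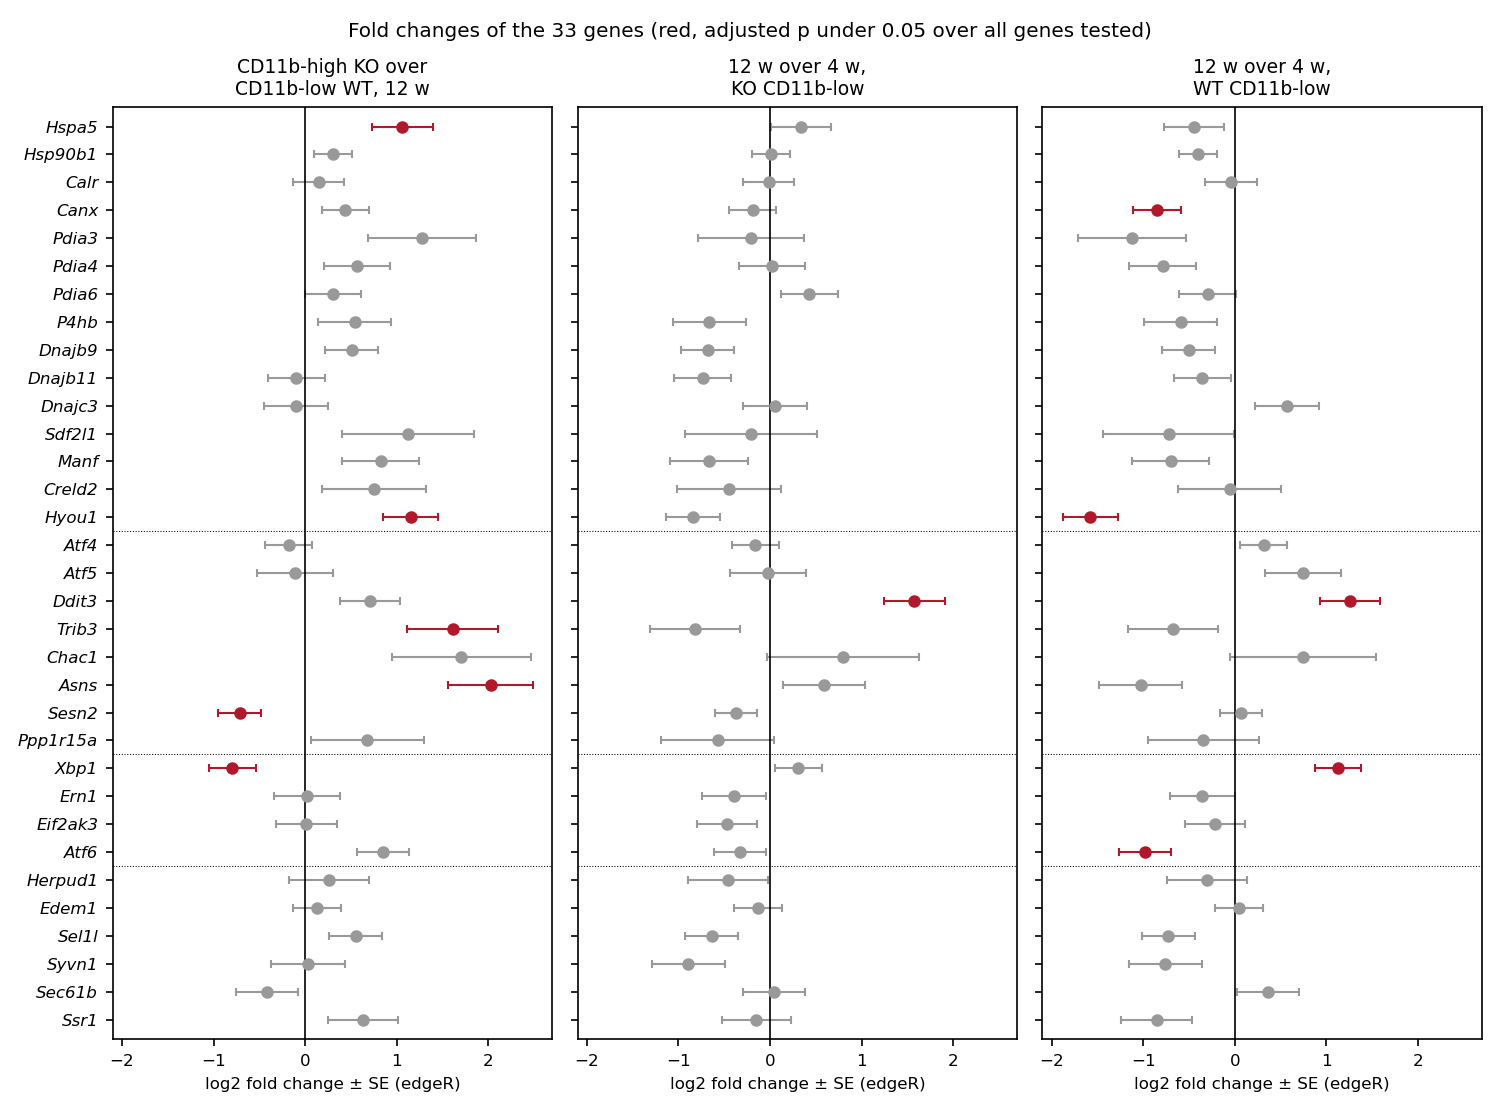
Log2 fold change ± SE (edgeR) of each gene in CD11b-high KO over CD11b-low WT cells at 12 weeks and at 12 over 4 weeks in KO and in WT CD11b-low cells; red points passed an adjusted p of 0.05 over all genes tested, dotted lines part the arms. In WT cells with age 14 of 15 chaperones lie below 0, and Ddit3 is red in both genotypes.

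CD11b-high KO cells differed from CD11b-low WT cells at 12 weeks, with higher Asns, Trib3, Hyou1 and Hspa5 and lower Xbp1 and Sesn2. These 6 of 33 genes passed, against 14.8% of all genes, so their share was near that of all genes. The 4 higher genes stand beside 9.23% of all genes and the 2 lower ones beside 5.6%. This comparison changes genotype and CD11b together, and it shares its KO libraries with the CD11b comparison and its WT libraries with those of genotype and age. Of the 15 chaperones 13 had positive fold changes with a median log2 of 0.54, and of the 8 ATF4-arm genes 5, with a median of 0.69, beside -0.01 over all genes tested.

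Asns (ENSMUSG00000029752, chr6:7675169-7693254, minus strand, 13 merged exons), asparagine synthetase and a classical ATF4 target, had 37.3, 67.3 and 51.5 CPM in KO CD11b-high libraries, against 2.82, 16.1 and 19.4 CPM in WT 12-week libraries. The groups did not overlap, and WT replicate 1 was the lowest of all 15 libraries. The log2 fold change was 2.03 ± 0.46, 4.07-fold higher (adjusted p = 0.00741). It was the 1 gene of the 6 that stayed past the threshold in every fit with a library left out (1.54 to 2.45, adjusted p up to 0.0381), and without WT replicate 1 it was 1.54 (adjusted p = 0.00295).

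Trib3 (chr2:152337422-152344032, minus strand) had 2.53, 5.34 and 7.38 CPM in KO CD11b-high libraries, against 1.77, 0.796 and 2.46 CPM in WT 12-week libraries. The lowest CD11b-high library was just above the highest WT one, and the log2 fold change was 1.61 ± 0.50 (adjusted p = 0.0375). Without KO CD11b-high replicate 2 (1.58, adjusted p = 0.101) or 3 (1.24, 0.147) or WT replicate 1 (1.66, 0.0659) or 2 (1.26, 0.122) it missed the threshold.

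Sesn2 (chr4:132492032-132510501, minus strand) encodes a leucine sensor that restrains mTORC1 and is raised by ATF4 and p53. It had 9.33, 10.3 and 8.27 CPM in KO CD11b-high libraries, against 13.7, 19.0 and 13.1 CPM in WT 12-week libraries, with no overlap. Its log2 fold change was -0.72 ± 0.23 (adjusted p = 0.0453), so it went the other way from Asns and Trib3. The call was lost without any of KO CD11b-high replicates 1 (adjusted p = 0.0773), 2 (0.0907) and 3 (0.130) and without WT replicate 2 (0.160). It was also lost in limma voom (-0.72, adjusted p = 0.0521) and with no filter on low counts (-0.77, 0.123).

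Hyou1 had 19.4, 30.9 and 34.3 CPM in KO CD11b-high libraries, all above the 13.5, 9.71 and 14.9 CPM of WT 12-week libraries. The log2 fold change was 1.15 ± 0.30 (adjusted p = 0.0162), and it missed the threshold without KO CD11b-high replicate 2 (1.08, adjusted p = 0.0641) or 3 (0.98, 0.0653) or WT replicate 2 (0.99, 0.0663). Hspa5 (ENSMUSG00000026864, chr2:34771970-34777547, plus strand, 7 merged exons) had 1318, 1626 and 2318 CPM in KO CD11b-high libraries, against 438, 1010 and 1075 CPM in WT 12-week libraries. The groups did not overlap, with WT replicate 1 far below the other 2 WT libraries. The log2 fold change was 1.06 ± 0.33 (adjusted p = 0.0399). It was lost without KO CD11b-high replicate 2 (1.11, adjusted p = 0.0884) or 3 (0.81, 0.154) or WT replicate 1 (0.74, 0.0870) or 2 (1.21, 0.0531).

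Xbp1 had 134, 116 and 142 CPM in KO CD11b-high libraries, against 331, 152 and 197 CPM in WT 12-week libraries. All KO libraries were below all WT ones, and WT replicate 1 was the farthest away. Its log2 fold change was -0.79 ± 0.25 (adjusted p = 0.0434). It was lost without KO CD11b-high replicate 1 (-0.82, adjusted p = 0.0727), 2 (-0.72, 0.168) or 3 (-0.86, 0.0741), and without WT replicate 1 the value was -0.42 (adjusted p = 0.142). In limma voom it was -0.72 (adjusted p = 0.0638). Of the anchors that missed the threshold, Ddit3 had 65.9, 52.7 and 52.4 CPM in KO CD11b-high libraries, against 49.3, 33.9 and 21.5 CPM in WT 12-week libraries. Its groups did not overlap, and its log2 fold change was 0.71 ± 0.32 (adjusted p = 0.155). Atf4 had 78.8, 102 and 142 CPM in KO CD11b-high libraries, overlapping the 100.03, 134 and 131 CPM of WT 12-week libraries, with a log2 fold change of -0.18 ± 0.26 (adjusted p = 0.684), or -0.31 without WT replicate 1 (0.446).

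Without WT replicate 1, 8 of the 33 genes passed in this comparison, against 14.1% of all genes. Asns, Hyou1 and Sesn2 were among them with the same direction. The other 5 were Sel1l (log2 fold change 1.03, adjusted p = 0.00654), Ddit3 (1.03, 0.0477), Atf6 (0.97, 0.0482), Edem1, a mannosidase-like protein that directs glycoproteins to degradation (0.60, 0.0372), and Sec61b, which was lower (-0.78, 0.0491). Fitted on the 6 libraries of the comparison alone, 0 of the 33 genes passed, with Asns nearest among the 6 (1.94, adjusted p = 0.0516), against 6.58% of all genes.

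Between CD11b-high and CD11b-low KO cells at 12 weeks, 26 of the 33 genes had positive fold changes, with a median log2 of 0.28. Of the 13284 genes tested 6814 were positive, with a median of 0.01. Of 22 other ER folding genes, listed below, 10 were positive (median -0.003). Of 31 other integrated stress response genes 16 were (median 0.04). Of the 33 genes 0 passed in edgeR, against 0.693% of all genes. At an unadjusted p under 0.05 there were 6 (Trib3, Chac1, Pdia3, Sdf2l1, Creld2 and Dnajb9), all with positive fold changes, against 10% of all genes. DESeq2 called 1 of the 33 (Trib3, log2 fold change 1.88, adjusted p = 0.0172) and 1.84% of its genes, and limma voom 0 and 1.09%. Samples with the same replicate number deviated together in these groups. In a fit of these 6 libraries with the replicate number as a block, chosen after the data had been seen, 1 of the 33 genes passed, again Trib3 (1.77, adjusted p = 0.0471), against 2.01% of all genes. With the block in the fit of all 15 libraries, Trib3 had an adjusted p of 0.116 and 0 of the 33 passed.

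Trib3 had 2.53, 5.34 and 7.38 CPM in KO CD11b-high libraries, against 1.31, 1.34 and 1.53 CPM in KO CD11b-low libraries. The groups did not overlap, and in each numbered pair the CD11b-high library was higher (log2 fold change 1.86 ± 0.50, adjusted p = 0.107). Without KO CD11b-high replicate 1 it passed (2.18, adjusted p = 0.0323). Chac1 had 0.448, 2.06 and 1.70 CPM in KO CD11b-high libraries (11, 44 and 55 counts), against 0.214, 0.298 and 0.261 CPM in KO CD11b-low libraries (7, 10 and 8 counts), with a log2 fold change of 2.43 ± 0.79 (adjusted p = 0.208).

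Pdia3, a disulfide isomerase that works with Calr and Canx, showed a different shape. It had 142, 136 and 908 CPM in KO CD11b-high libraries, against 132, 107 and 121 CPM in KO CD11b-low libraries. Sdf2l1, a small partner of BiP, had 14.9, 17.3 and 116 CPM in KO CD11b-high libraries, against 13.0, 9.04 and 15.5 CPM in KO CD11b-low libraries. Creld2, a disulfide isomerase with EGF-like repeats, had 10.6, 9.52 and 48.3 CPM in KO CD11b-high libraries, against 11.7, 7.07 and 7.64 CPM in KO CD11b-low libraries. In all 3 genes replicate 3 of the CD11b-high group was several times above every other library of both groups, while its replicates 1 and 2 lay within or near the CD11b-low range. Their log2 fold changes were 1.72, 1.98 and 1.38, none past the threshold. Without replicate 3 of the CD11b-high group they were 0.21 for Pdia3, 0.36 for Sdf2l1 and 0.19 for Creld2.

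The same genes were uneven elsewhere. Pdia3 had 155, 131 and 129 CPM in KO 4-week libraries, against 567, 339 and 162 CPM in WT 4-week libraries. Sdf2l1 had 20.5, 11.2 and 11.8 CPM in KO 4-week libraries, against 62.2, 33.5 and 16.3 CPM in WT 4-week libraries. Replicate 1 of the WT 4-week group was the highest of its group for both. Replicate 3 of the CD11b-high group was the highest of all 15 libraries for 12 of the 33 genes, including Hspa5, Manf, P4hb, Herpud1 and Ppp1r15a. Manf, a secreted ER protein, had 47.0, 144 and 239 CPM in KO CD11b-high libraries, against 39.8, 90.4 and 104 CPM in KO CD11b-low libraries. P4hb, the founding disulfide isomerase, had 222, 623 and 889 CPM in KO CD11b-high libraries, against 187, 443 and 352 CPM in KO CD11b-low libraries. Ppp1r15a (GADD34), which restores translation by dephosphorylating eIF2, had 16.8, 42.7 and 82.7 CPM in KO CD11b-high libraries, against 13.6, 25.8 and 30.9 CPM in KO CD11b-low libraries. In each of these 3 genes replicate 1 was the lowest of its group on both sides of the CD11b split.

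None of the anchors passed between CD11b-high and CD11b-low KO cells. Hspa5 had 1318, 1626 and 2318 CPM in CD11b-high libraries, against 1037, 1291 and 2040 CPM in CD11b-low libraries. The groups overlapped, although the CD11b-high library was higher in each numbered pair (log2 fold change 0.27 ± 0.33, adjusted p = 0.869). Xbp1 (log2 fold change -0.19 ± 0.25, adjusted p = 0.881), Atf4 (0.16 ± 0.26, 0.910) and Ddit3 (0.49 ± 0.32, 0.707) overlapped as well. In the numbered pairs Xbp1 was lower and Ddit3 higher in the CD11b-high library of all 3, while Atf4 went both ways. In the fit of these 6 libraries with the block, Ddit3 was at 0.57 (adjusted p = 0.216), Hspa5 at 0.31 (0.495), Xbp1 at -0.17 (0.681) and Atf4 at 0.16 (0.735).

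Between KO and WT CD11b-low cells at 12 weeks, 0 of the 33 genes passed in edgeR, against 3.1% of all genes. At an unadjusted p under 0.05 there were 6 (Asns, Hspa5, Hyou1, Xbp1, Sesn2 and Canx), against 20.5% of all genes. DESeq2 called 0 of them and 6.51% of its genes, and limma voom 0 and 2.41%. Asns had 20.5, 33.2 and 40.2 CPM in KO CD11b-low libraries, against 2.82, 16.1 and 19.4 CPM in WT libraries, with no overlap. Its log2 fold change was 1.29 ± 0.45 (adjusted p = 0.131), and 0.82 (adjusted p = 0.161) without WT replicate 1.

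Hspa5 had 1037, 1291 and 2040 CPM in KO CD11b-low libraries, against 438, 1010 and 1075 CPM in WT libraries. They overlapped, with a log2 fold change of 0.79 ± 0.33 (adjusted p = 0.193) and of 0.48 (adjusted p = 0.401) without WT replicate 1. Xbp1 had 140, 138 and 170 CPM in KO CD11b-low libraries, against 331, 152 and 197 CPM in WT libraries (log2 fold change -0.60 ± 0.25, adjusted p = 0.196), and -0.23 without WT replicate 1. Ddit3 had 59.6, 27.0 and 35.4 CPM in KO CD11b-low libraries, against 49.3, 33.9 and 21.5 CPM in WT libraries (0.22 ± 0.32, adjusted p = 0.726), and 0.55 without WT replicate 1 (0.410). Atf4 had 71.8, 114 and 102 CPM in KO CD11b-low libraries, against 100.03, 134 and 131 CPM in WT libraries (-0.34 ± 0.26, adjusted p = 0.460), and -0.47 without WT replicate 1 (0.376). The ranges of all these anchors overlapped between the genotypes.

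At 4 weeks 0 of the 33 genes passed between KO and WT cells in edgeR, against 0.0979% of all genes. At an unadjusted p under 0.05 there was 1 (Pdia3), against 1.5% of all genes. DESeq2 called 0 and 0.0877% of its genes, and limma voom 0 and 0.0678%. Pdia3 had a log2 fold change of -1.36 ± 0.59 (adjusted p = 1). Its levels, given above, did not overlap, with the KO libraries below the WT ones. Hspa5 had 1370, 1030 and 1048 CPM in KO 4-week libraries, against 1249, 1146 and 1036 CPM in WT 4-week libraries (0.01 ± 0.33). Xbp1 had 130, 114 and 117 CPM in KO 4-week libraries, against 97.2, 90.0 and 124 CPM in WT 4-week libraries (0.21 ± 0.25). Atf4 had 91.97, 107 and 122 CPM in KO 4-week libraries, against 117, 99.95 and 76.8 CPM in WT 4-week libraries (0.13 ± 0.26). Ddit3 had 14.3, 10.5 and 16.1 CPM in KO 4-week libraries, against 11.7, 13.0 and 19.2 CPM in WT 4-week libraries (-0.10 ± 0.33). These 4 genes overlapped between the genotypes, each with an adjusted p of 1.

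Set against each other, the chosen ER chaperones stood closer to the chosen ATF4-arm genes in every library of 12-week mice than in any of 4-week mice. The level of an arm in a library was taken as the mean log2(CPM + 1) of its genes. The ER chaperones stood above the ATF4 arm by 3.26 ± 0.23 in KO CD11b-high libraries, 3.42 ± 0.13 in KO CD11b-low 12-week libraries, 3.33 ± 0.20 in WT 12-week libraries, 3.74 ± 0.17 in KO 4-week libraries and 3.93 ± 0.21 in WT 4-week libraries (SD, n = 3 each). The 9 libraries of 12-week mice had differences of 3.10 to 3.56, and the 6 libraries of 4-week mice had 3.58 to 4.18, so the ages did not overlap. In 12-week over 4-week cells the difference changed by -0.61 in WT and -0.32 in KO CD11b-low cells, beside pooled SDs of 0.21 and 0.15. In both the chaperones carried it: their mean changed by -0.58 in WT and by -0.27 in KO cells, and that of the ATF4 arm by 0.02 and 0.05. Other genes of the same pathways, listed below, went the other way with age. In WT cells 22 other ER folding genes had a median log2 fold change of 0.31, with 15 positive. There 31 other integrated stress response genes had one of -0.48, with 22 negative. In KO CD11b-low cells the medians were 0.25 and -0.17, so the shift holds for the chosen members only.

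**Figure D4:**
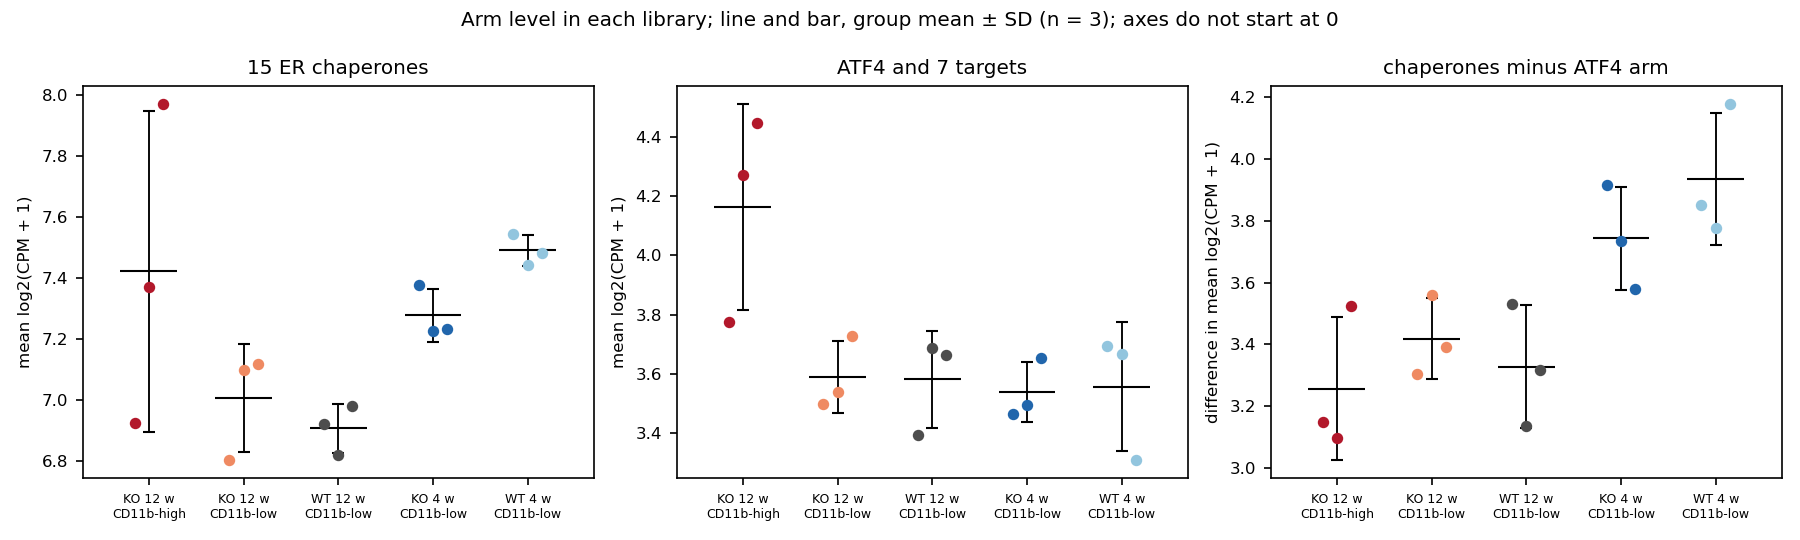
Mean log2(CPM + 1) of the 15 ER chaperones, of the 8 ATF4-arm genes, and the difference between them, in each library; points are libraries, lines and bars the group mean ± SD (n = 3), and the axes do not start at 0. The difference is 3.10 to 3.56 in the 9 libraries of 12-week mice and 3.58 to 4.18 in the 6 of 4-week mice.

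In CD11b-high over CD11b-low KO cells both arms were higher, the chaperones by 0.42 and the ATF4 arm by 0.58, so that the difference between them moved by -0.16, less than its pooled SD of 0.19. The ATF4 arm stood at 3.77, 4.27 and 4.45 in the CD11b-high libraries and at 3.31 to 3.73 in the other 12 libraries. The chaperones stood at 6.92, 7.37 and 7.97 in the CD11b-high libraries, the widest range of any group, against 6.80, 7.10 and 7.12 in KO CD11b-low libraries. Between KO and WT cells the difference moved by 0.09 at 12 weeks and by -0.19 at 4 weeks, against pooled SDs of 0.17 and 0.19. These levels are means over genes that were chosen with earlier results known, and no test was made of them.

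Within the ATF4 arm the genes did not move as 1 block. Ddit3 was higher at 12 than at 4 weeks in both genotypes, while Trib3 had log2 fold changes with age of -0.82 ± 0.49 in KO and -0.67 ± 0.49 in WT cells, and Asns 0.59 ± 0.45 in KO and -1.03 ± 0.45 in WT cells, none of these 4 past the threshold. Without WT 12-week replicate 1 the value of Asns in WT cells was -0.55 (adjusted p = 0.191). Atf4 and Atf5, the transcription factors, had no call in any of the 7 comparisons in the edgeR fit of all libraries, and neither did Ppp1r15a. With no filter on low counts Ppp1r15a passed in CD11b-high over CD11b-low KO cells (0.98, adjusted p = 0.0388). Atf4 stayed between 71.8 and 142 CPM in all 15 libraries. Atf5 was at 10.9 CPM in WT 12-week replicate 1 and between 2.24 and 6.29 CPM in the other 14.

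Among the sensors, Ern1 and Eif2ak3 passed in no comparison, with levels of 2.13 to 6.99 CPM and 5.09 to 16.2 CPM. Of the ERAD and translocation genes none passed in any of the 7 comparisons in the edgeR fit of all 15 libraries, while Sel1l, Edem1 and Sec61b passed without WT 12-week replicate 1, as given above. Syvn1, the ERAD ubiquitin ligase HRD1, had 7.96, 4.80 and 9.04 CPM in KO CD11b-low 12-week libraries, against 16.6, 10.4 and 13.5 CPM in KO 4-week libraries, with no overlap and a log2 fold change of -0.89 ± 0.40 (adjusted p = 0.174). Sel1l had 62.4, 42.6 and 37.7 CPM in KO CD11b-low 12-week libraries, all below the 74.3, 76.6 and 71.0 CPM of KO 4-week libraries (-0.64 ± 0.29, adjusted p = 0.178). In WT cells Sel1l had 73.1, 30.9 and 35.4 CPM at 12 weeks, against 80.8, 79.5 and 70.5 CPM at 4 weeks (-0.73 ± 0.29, adjusted p = 0.0906), with replicate 1 of the 12-week group in the 4-week range. Ssr1, a subunit of the translocon-associated complex, had 87.5, 366 and 428 CPM in WT 12-week libraries, against 459, 541 and 594 CPM in WT 4-week libraries (-0.85 ± 0.38, adjusted p = 0.135), and replicate 1 was again the farthest. With no filter on low counts it passed (-0.85, adjusted p = 0.0341). Herpud1 ranged from 109 to 406 CPM and had no call.

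Other genes of the same pathways, in 4 lists that hold 87 tested genes, passed in 18 cases with age in WT cells, 5 with age in KO CD11b-low cells, 9 in CD11b-high KO over WT cells, 2 in KO over WT cells at 12 weeks and 0 in the 2 remaining comparisons of groups. These are 20.7, 5.75, 10.3 and 2.3% of the 87, beside 17.2, 6.89, 14.8 and 3.1% of all genes. In this fit of all 15 libraries the shares thus lay near or below the background. Without WT 12-week replicate 1, 23 of the 87 passed with age in WT cells, beside 18.4% of all genes. In CD11b-high KO over WT cells 10 passed, beside 14.1%, and in KO over WT cells at 12 weeks 3, beside 1.87%. Of 22 other ER folding genes, 2 passed in KO over WT CD11b-low cells at 12 weeks, Fkbp11 and Hspa13, both higher. Fkbp11, an ER prolyl isomerase, averaged 41.6 ± 24.3 CPM in KO CD11b-low 12-week cells, against 4.69 ± 1.32 CPM in WT cells (SD, n = 3 each), with a log2 fold change of 3.15 ± 0.44 (adjusted p = 5.5e-04). It averaged 132 ± 65.9 CPM in KO CD11b-high cells and 1.70 ± 0.34 CPM in KO 4-week cells. Its change with age differed between the genotypes (interaction 3.66 ± 0.61 on the log2 scale, adjusted p = 0.0177), the 1 gene of these lists that passed, and missed the threshold without WT 12-week replicate 1 (3.70, 0.0791). The markers of B and plasma cells given above were also higher in KO 12-week cells, and their part in its level was not tested. Hspa13, an HSP70 of microsomes, averaged 38.5 ± 14.4 CPM in KO CD11b-low cells, against 18.7 ± 2.37 CPM in WT cells (1.04 ± 0.24, adjusted p = 0.0262), and missed the threshold without WT replicate 1 (0.98, 0.0641).

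In CD11b-high KO over WT cells, where 9.23% of all genes were higher and 5.6% lower, 3 of 22 other ER folding genes were higher and none lower. They were Fkbp11 (4.81 ± 0.47), Hspa13 (1.37 ± 0.25) and Dnajc10 (1.29 ± 0.33). Of 27 other ERAD, translocon and glycosylation genes 1 was higher, Spcs3 of the signal peptidase (1.20 ± 0.37, adjusted p = 0.0363). Of 31 other integrated stress response genes tested 4 were higher and none lower, beside the same 9.23 and 5.6% of all genes. The alanine transaminase Gpt2 averaged 14.5 ± 3.11 CPM in KO CD11b-high cells, against 5.98 ± 1.08 CPM in WT cells (log2 fold change 1.28 ± 0.28, adjusted p = 0.00539). The cystine importer Slc7a11 (1.91 ± 0.47, adjusted p = 0.0116), the alanyl-tRNA synthetase Aars (0.89 ± 0.25, 0.0263) and the transcription factor Atf3 (1.49 ± 0.46, 0.0386) were higher too. Of 7 other transducers tested 1 was lower, Bloc1s1, a known IRE1 substrate (-0.93 ± 0.27, adjusted p = 0.0303). Of the genes named here for CD11b-high KO over WT cells, Spcs3 (0.94, adjusted p = 0.111), Atf3 (1.52, 0.0999) and Bloc1s1 (-0.70, 0.0843) lost their call without WT replicate 1. None of these lists held a call in CD11b-high over CD11b-low KO cells (edgeR; 7 of their 87 tested genes at an unadjusted p under 0.05) or in KO over WT cells at 4 weeks (0 of 87 at an unadjusted p under 0.05).

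With age in WT cells the folding genes went both ways, as did all genes, of which 8.79% were higher and 8.39% lower. Of the 22 other ER folding genes 3 were higher at 12 weeks, Cnpy2 (1.27 ± 0.25), Sdf2 (1.16 ± 0.26) and the cyclophilin Ppib (0.74 ± 0.19), and 2 lower, among them Dnajc10 (-1.16 ± 0.33). Of the 27 ERAD, translocon and glycosylation genes 3 were higher, Ssr4 (1.29 ± 0.23), Spcs1 (1.17 ± 0.26) and Ostc (0.73 ± 0.22), and 2 lower, among them the oligosaccharyltransferase subunit Stt3a (-1.10 ± 0.34). Of the 31 integrated stress response genes 5 were lower and 1 higher. The tRNA synthetases Aars (-1.17 ± 0.25, adjusted p = 0.00656), Eprs (-1.07 ± 0.24, 0.00798) and Tars (-0.90 ± 0.22, 0.0108), which ATF4 is known to raise, were among the lower ones, and Nupr1, a stress-induced transcription cofactor, was the higher one (1.13 ± 0.34, 0.0283). Of the 7 transducers Bloc1s1 was higher (1.08 ± 0.27) and Mbtps1, the site-1 protease that cuts ATF6, lower (-1.25 ± 0.32, adjusted p = 0.0132). Without WT 12-week replicate 1, Dnajc10 (-0.99, adjusted p = 0.0616), Stt3a (-0.74, 0.0508) and Nupr1 (0.67, 0.121) lost their call with age in WT cells. With age in KO CD11b-low cells 5 genes of these lists passed, Fkbp11 (4.61 ± 0.47), Slc7a11 (2.28 ± 0.48), Ssr4 (0.84 ± 0.23) and Ppib (0.65 ± 0.19) higher and Cnpy3 (-0.94 ± 0.25) lower. Ssr4 and Ppib thus passed with the same sign at 12 over 4 weeks in both genotypes.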

How the data were processed

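Libraries of sorted alveolar macrophages were sequenced as bulk RNA. The deposited values are raw read counts per gene, made by the authors with STAR and with featureCounts of the Subread package, per the submitters' processing notes. The genome build, annotation, strand setting and versions are not given in the sources used here, so reads of genes that overlap on opposite strands may not have been kept apart. The table's 40780 rows held 270 that repeated a gene with the same counts, which were removed.

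Counts were scaled with TMM factors and tested with edgeR 4.0.16 in R 4.3.3 (robust quasi-likelihood, Benjamini-Hochberg adjustment over 13284 genes kept by filterByExpr with a minimum count of 10 and a minimum total of 15). All 15 libraries entered 1 fit of 5 group means with 10 residual degrees of freedom, and an adjusted p under 0.05 was a call. Errors of fold changes are standard errors and those of levels are SDs over 3 libraries. P-values measure the spread between pools of mice. Alternatives were RLE factors, no filter on low counts, DESeq2 1.42.0, limma 3.58.1 (voom), the groups of a comparison alone, the replicate number as a block, and leaving out each library.

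Replicate numbers come from the sample titles, and no label says what a number shares. Deviations from the group means of same-numbered libraries correlated by 0.43, 0.35 and 0.11 between CD11b-high and CD11b-low KO cells, all above 0.1, so for these groups the fit with the replicate number as a block is given beside the fit without it. In no other comparison were all 3 correlations above 0.1. Between KO and WT CD11b-low cells at 12 weeks, which came from different mice, they were 0.36, 0.085 and 0.21. The correlations therefore cannot tell a shared pool from another thing shared by a number.

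The members, arms and lists were chosen with earlier results of these data known. The text gives values per library for members past the threshold and for Hspa5, Xbp1, Atf4 and Ddit3 in each comparison, and names up to 4 genes of each list, by the smallest p among those that passed. Other members shown in detail were chosen after their values were seen. Lists held other ER folding genes, other ERAD, translocon and glycosylation genes, other integrated stress response genes, other transducers, heat shock genes and immediate early genes. No test was made of a list or arm as a whole. Gene positions and exon lengths were taken from GENCODE M21 on GRCm38, matched by Ensembl identifier, and promoter windows from RefSeq on GRCm38.p6.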

Additional observations from a re-analysis of the deposited data

How the results depend on the processing

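At 3 libraries a group, counts of members past the threshold were unsteady. With no filter on low counts edgeR called 1 of the 33 genes in KO over WT cells at 12 weeks, 2 at 4 weeks, 5 in CD11b-high over CD11b-low KO cells, 8 with age in WT cells, 1 in the interaction and 12 for any difference among groups, beside 4.34, 0.291, 2.12, 9.63, 1.28 and 19.7% of 25100 genes in the order given. With the groups of a comparison alone, 0 passed in CD11b-high KO over WT cells and 2 with age in WT cells, beside 6.58 and 9.44% of all genes. DESeq2 called 1 in CD11b-high over CD11b-low KO cells, beside 1.84%. With 1 library left out the counts were 0 to 1 in CD11b-high over CD11b-low KO cells, beside 0.0145 to 1.79% of all genes. In CD11b-high KO over WT cells they were 1 to 8, beside 6.97 to 15.2%. With age they were 0 to 1 in KO cells, beside 1.7 to 9.48%, and 3 to 6 in WT cells, beside 7.74 to 18.4%. For any difference they were 4 to 10, beside 20.5 to 33.2%, so the shares of all genes moved with the library left out too.

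With the replicate block 1 gene passed in KO over WT cells at 12 weeks (Asns, 1.43, adjusted p = 0.0428), beside 3.57% of all genes. No label says what samples with the same number share. The block also added Asns with age in WT cells (-1.21, adjusted p = 0.0325) and dropped Sesn2 in CD11b-high KO over WT cells (-0.71, 0.0532). In CD11b-high over CD11b-low KO cells, the fit of these 6 libraries with the block, chosen after seeing the data, called 1 gene, beside 2.01% of all genes.

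Signs reversed for anchors in comparisons where they had not passed, on the log2 scale. In KO over WT cells at 12 weeks Ddit3 lay between -0.16 and 0.55 with 1 library left out, negative without KO CD11b-low replicate 1 (-0.16) or WT replicate 3 (-0.03). At 4 weeks Ddit3 was 0.06 without KO replicate 2 and 0.15 without WT replicate 3. Hspa5 at 4 weeks was -0.0029 with RLE factors, -0.0026 in DESeq2 and -0.0012 in limma voom, and -0.14 to 0.081 with 1 library left out. Leaving out 1 library gave Atf4 -0.016 to 0.28 at 4 weeks, -0.091 to 0.34 in CD11b-high over CD11b-low KO cells and -0.30 to 0.012 with age in KO cells. It gave Ddit3 -0.065 to 0.65 in the interaction. The cause of these changes was not tested. RLE factors moved the median of all genes by at most 0.0565 (log2). The arm difference at 12 over 4 weeks was -0.71 to -0.49 in WT and -0.40 to -0.24 in KO cells with 1 library left out.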

Other observations

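Immediate early genes, which can respond to handling of cells, were mostly lower in KO than in WT libraries without passing. Of 12 such genes 11 had negative fold changes in KO over WT CD11b-low cells at 12 weeks, with a median log2 fold change of -0.55, and 10 had them at 4 weeks, with a median of -0.48. In CD11b-high KO over WT cells 10 of the 12 were negative, with a median of -0.63. In edgeR 0 of the 12 passed in each of the 3 comparisons, with 1, 0 and 4 at an unadjusted p under 0.05 in the order given, beside 20.5, 1.5 and 29.5% of all genes. Of 10 cytosolic and mitochondrial heat shock genes tested, 1 passed in any of the 7 comparisons: Hspe1, the small mitochondrial chaperonin, averaged 107 ± 17.0 CPM in WT 12-week cells, against 50.02 ± 4.60 CPM in WT 4-week cells (SD, n = 3 each; log2 fold change 1.09 ± 0.24, edgeR adjusted p = 0.00736).

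Markers of other cells, in CPM without TMM factors, differed between groups in the sorted pools. Summed eosinophil markers were 299 to 999 CPM in KO CD11b-high libraries, 123 to 617 CPM in KO CD11b-low 12-week libraries and 10.02 to 39.2 CPM in the other 9, with Epx at 0 in all 15. Ear6 made up more than 99% of that sum in every group, and Prg2 reached at most 8.14 CPM in any library. Summed neutrophil markers were 308 to 488 CPM in KO CD11b-high libraries and 53.8 to 153 CPM in the other 12. S100a8 made up 69.8% of the sum in KO CD11b-high libraries. Csf3r did not follow it, with 12.8 to 48.5 CPM there, against 52.6 to 63.7 CPM in KO and 46.8 to 49.6 CPM in WT 4-week libraries. Summed erythroid markers were 49.5 to 171 CPM in the 9 KO libraries, 493 to 1355 CPM in WT 12-week libraries and 1810 to 8304 CPM in WT 4-week libraries. Summed lung epithelial markers were 56.5 to 119 CPM in WT 12-week libraries and 10.7 to 43.0 CPM in the other 12. Epcam and Sftpc made up 54.9 and 31.9% of the sum in WT 12-week libraries. Scgb1a1 went the other way, with 17.7 to 22.4 CPM in KO CD11b-high libraries against 6.44 to 13.8 CPM in WT 12-week libraries. The epithelial markers thus did not all move alike. Summed dendritic cell markers were 20.9 to 154 CPM in KO CD11b-high libraries and 2.50 to 18.6 CPM in the other 12. Ccr7 made up 73.6% of the sum in KO CD11b-high libraries. Xcr1 was not higher there, at 0.983 to 1.71 CPM, against 0.579 to 2.23 CPM in KO CD11b-low 12-week and 0.330 to 2.77 CPM in WT 12-week libraries. Summed markers of monocyte-derived macrophages were 161 to 318 CPM in all 15. Fcgr4 made up 90.1 to 96.6% of the last sum, while Ly6c2 was at 1.36 to 4.20 CPM in KO CD11b-high libraries, 0.632 to 1.48 CPM in KO CD11b-low 12-week libraries and 0.0853 to 0.2502 CPM in WT 12-week libraries. Mitochondrial genes took 1.13 to 1.29% of counts in WT 12-week libraries and 0.505 to 1.17% in the other 12. The part of these in the results was not tested.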
